A study of Mus musculus with 8 samples.

Results

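Kupffer cells are the resident macrophages of the liver, and 10 genes that mark their identity were followed in liver RNA of aged obese mice fed with or without docosahexaenoic acid (DHA). The members were the rows of the count tables whose Ensembl identifier carries the symbol Clec4f, Vsig4, Timd4, Cd5l, Marco, Cd163, Folr2, Adgre1, Csf1r or Cd14, that is 10 of 56884 genes. There were 3 DIO mice and 5 DIO + DHA mice, each giving 1 library, and all 8 were female C57BL/6J animals aged 18 months. From the age of 2 months all ate a high-fat diet, lipid supplying 45% of the energy, which made them obese (diet-induced obesity, DIO). After 4 months on it, the DIO + DHA group received the same diet with 15% of its lipid, by weight, replaced by a fish oil concentrate that held 683.4 mg of DHA and 46.7 mg of EPA per g. Both diets contained the same tocopherols, and the mice were fasted overnight before the livers were taken. The sequenced mice were a subsample of a larger cohort housed 5 to a cage, and the cage of each is not given in the sources used here. Below, ± is the SD over the 3 DIO or the 5 DIO + DHA libraries.

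Kupffer cells line the liver sinusoids, where they take up particles, bacteria, dying cells and aged erythrocytes from the blood. They settle before birth and largely renew themselves, which requires the receptor for colony-stimulating factor 1, and their identity depends on signals from neighbouring endothelial cells, stellate cells and hepatocytes. In steatotic liver some resident cells are lost and macrophages from blood monocytes enter the emptied niche, where they acquire several of the same markers over time. Clec4f, Vsig4, Timd4, Cd5l and Marco are largely restricted to resident macrophages in mouse liver, while Adgre1 (F4/80) and Csf1r are shared by macrophages of any origin. Cd14 is also made by monocytes, endothelial cells and hepatocytes.

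Because several members changed together and 1 moved against them, the promoters of the 3 lower genes most particular to Kupffer cells and of the higher gene are shown first. Each sequence runs from 250 bases before to 50 bases after the transcription start in RefSeq (GRCm38.p6) and was found once, without mismatch, in GRCm39. The window of Cd5l lies at chr3:87264938-87265237 on the plus strand. Those of Clec4f (chr6:83633049-83633348), Vsig4 (chrX:95336995-95337294) and Marco (chr1:120432704-120433003) lie on the minus strand. Capitals mark 3 short motifs on either strand: GAGGAA, a core bound by PU.1, TGCTGA, a half-site of MAF proteins, and TGGGAA, a core bound by RBPJ. These are factors known in macrophages.

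Cd5l: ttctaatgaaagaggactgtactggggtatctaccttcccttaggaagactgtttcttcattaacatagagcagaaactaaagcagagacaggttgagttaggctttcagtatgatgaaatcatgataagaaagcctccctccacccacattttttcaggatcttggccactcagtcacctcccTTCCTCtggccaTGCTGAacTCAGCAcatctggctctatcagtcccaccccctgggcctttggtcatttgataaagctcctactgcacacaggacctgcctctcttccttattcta
Clec4f: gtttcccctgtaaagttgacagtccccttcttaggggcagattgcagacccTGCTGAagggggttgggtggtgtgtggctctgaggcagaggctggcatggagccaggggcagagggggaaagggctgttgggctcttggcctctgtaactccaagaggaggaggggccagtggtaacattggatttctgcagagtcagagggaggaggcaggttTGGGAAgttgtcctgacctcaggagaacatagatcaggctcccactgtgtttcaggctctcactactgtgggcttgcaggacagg
Vsig4: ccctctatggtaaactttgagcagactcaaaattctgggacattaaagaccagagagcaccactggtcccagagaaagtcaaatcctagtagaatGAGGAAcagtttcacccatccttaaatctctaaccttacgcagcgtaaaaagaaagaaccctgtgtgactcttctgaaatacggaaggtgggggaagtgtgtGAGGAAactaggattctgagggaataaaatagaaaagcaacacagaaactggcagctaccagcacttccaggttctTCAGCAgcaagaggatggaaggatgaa
Marco: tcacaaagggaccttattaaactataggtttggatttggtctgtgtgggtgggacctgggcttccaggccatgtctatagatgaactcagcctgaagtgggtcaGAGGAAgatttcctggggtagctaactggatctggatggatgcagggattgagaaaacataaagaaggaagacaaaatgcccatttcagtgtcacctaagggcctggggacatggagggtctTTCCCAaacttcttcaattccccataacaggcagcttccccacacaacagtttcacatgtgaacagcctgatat

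Promoter windows were examined for 7 of the 10 members, the 4 above and Cd163, Folr2 and Timd4. Windows on chr18, where Csf1r and Cd14 lie, were left out by the selection, and none was found for Adgre1. The shares over all windows below were not restricted by chromosome. TGCTGA was present in the windows of 5 members, Cd5l, Clec4f, Vsig4, Timd4 and Folr2, and in 19.5% of all 32851 windows of this length. GAGGAA was present in 3 members, Cd5l, Vsig4 and Marco, against 28.3% of all windows. TGGGAA was present in 2 members, Clec4f and Marco, against 25.6%. In Cd5l the pair of TGCTGA matches lay 54 and 46 bases before the start, and in Clec4f the single match lay 199 bases before it. A match of letters is a description of the window, not a bound site.

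The members did not move as one group. In the DIO + DHA group, Cd5l, Csf1r, Vsig4, Clec4f and Adgre1 were lower, Marco was higher, and Timd4, Cd163 and Cd14 did not pass the test. The call of Adgre1 was lost in 5 of the 8 fits that each left out 1 library. Folr2 was almost uncounted in every library. Thus 9 of the 10 members passed the filter on low counts, and of these 5 were lower and 1 higher at an adjusted p under 0.05 with edgeR's quasi-likelihood test and Benjamini-Hochberg adjustment over all 12412 genes tested. Of all tested genes, 7.28% were lower and 7.89% higher by the same rule. The libraries of the groups did not overlap for 4 members in the lower direction (8.88% of all tested genes) and for Marco in the higher direction (9.54%). The median log2 fold change of the 9 tested members was -0.72, where that of all tested genes was 0.001. In liver RNA as a whole, fewer Kupffer cells and less of these transcripts per cell cannot be told apart. Levels are given below as CPM, counts scaled to a common library total by the TMM method. Most reads come from 3′ ends and were not divided by gene length, so the level of a gene is compared between mice and not with that of other genes.

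**Figure D1:**
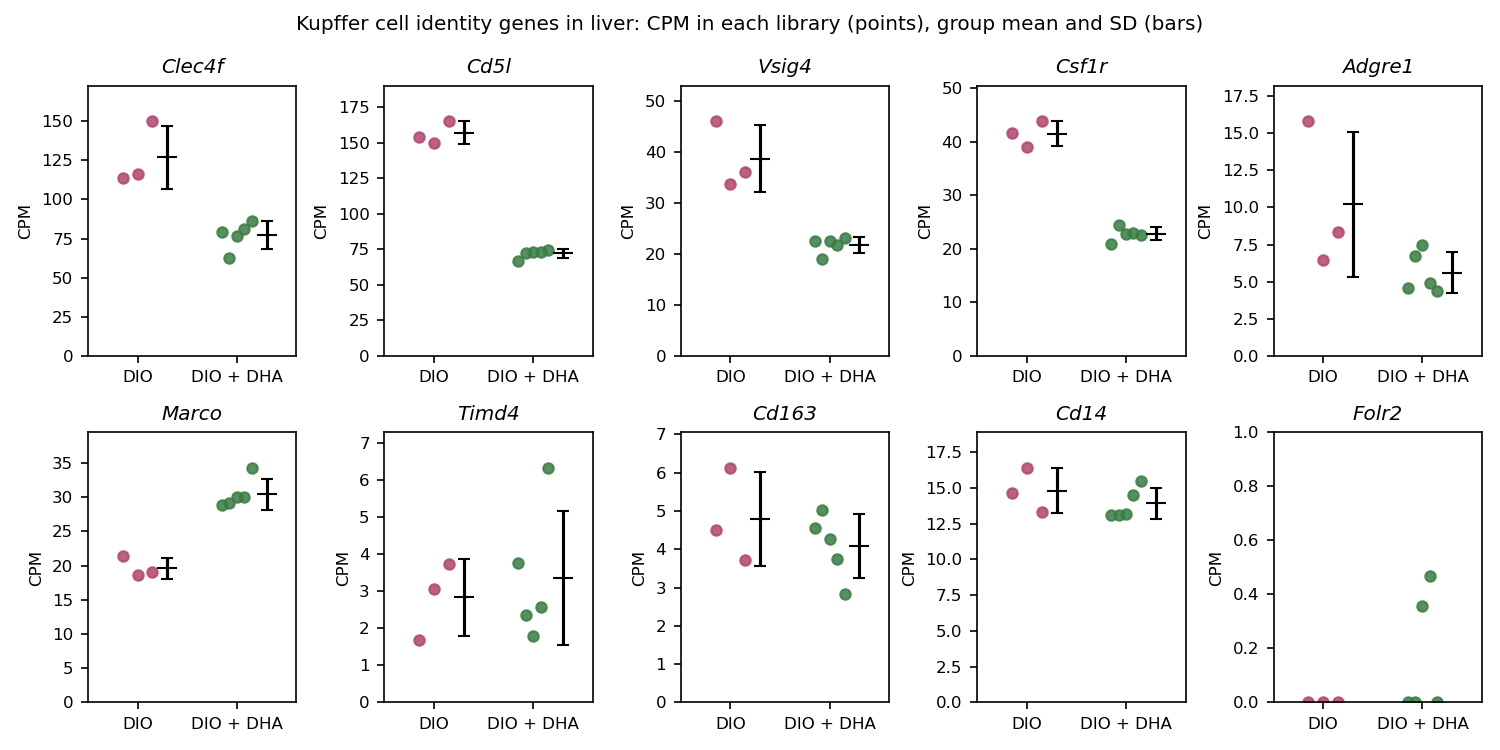
CPM of each of the 10 members (vertical axes, each from 0) in the DIO (n = 3) and DIO + DHA (n = 5) libraries. Points are libraries, and bars beside them give the group mean and SD, which are left out for Folr2. The groups are apart for Clec4f, Cd5l, Vsig4, Csf1r and Marco, with Marco alone higher in the DIO + DHA group.

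Among the scavenging and pattern-recognition members, Cd5l changed most. Cd5l (CD5 antigen-like, also AIM) is a secreted protein of the scavenger receptor cysteine-rich family made by tissue macrophages and carried in blood with IgM. Its gene (ENSMUSG00000015854.8) lies at chr3:87265188-87278380 of GRCm39. Cd5l was at 154, 150 and 165 CPM in DIO replicates 1, 4 and 5, and at 67, 72.4, 73.1, 73.3 and 74.7 CPM in DIO + DHA replicates 1, 2, 4, 5 and 6. Every DIO + DHA library was below every DIO library, and the spread within each group was small, with a coefficient of variation of 5.08% and 4.09%. The mean fell from 157 ± 7.95 to 72.1 ± 2.95 CPM (log2 fold change -1.12, standard error 0.08, 95% interval -1.28 to -0.96, adjusted p = 2.26e-17 from edgeR), or 54% less. Ighm, the heavy chain of the IgM that carries the protein, had means of 67.1 ± 1.08 and 66.5 ± 3.59 CPM and did not pass (log2 fold change -0.02, adjusted p = 0.938 from edgeR).

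Clec4f, a C-type lectin that binds galactose-type sugars and is the most particular marker of mouse Kupffer cells, was also lower. The gene (ENSMUSG00000014542.4) lies at chr6:83621524-83633169. It was at 114, 116 and 150 CPM in DIO replicates 1, 4 and 5. It was at 79.5, 62.7, 76.7, 80.8 and 86.3 CPM in DIO + DHA replicates 1, 2, 4, 5 and 6. The groups did not overlap, DIO replicate 5 stood above the other DIO libraries and DIO + DHA replicate 2 below the others of its group. The log2 fold change was -0.72 (standard error 0.09, 95% interval -0.91 to -0.54, adjusted p = 2.3e-08 from edgeR), or 39.5% less, and it was -0.56 without DIO replicate 5.

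Vsig4 is the complement receptor CRIg, which binds C3b and iC3b and removes opsonized bacteria from blood. The gene (ENSMUSG00000044206.4) lies at chrX:95290809-95337044. Vsig4 was at 46.1, 33.7 and 36.2 CPM in DIO replicates 1, 4 and 5, and at 22.6, 19.1, 22.5, 21.8 and 23.1 CPM in DIO + DHA replicates 1, 2, 4, 5 and 6. All DIO + DHA libraries were below all DIO libraries, among which replicate 1 was highest. The log2 fold change was -0.76 (standard error 0.12, 95% interval -1.02 to -0.51, adjusted p = 3.19e-06 from edgeR), or 41.2% less. C3, which supplies the ligand and is made mostly by hepatocytes, fell by 0.36 on the log2 scale, from 4310 ± 148 to 3360 ± 183 CPM (adjusted p = 3.82e-06 from edgeR).

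Marco went the other way. It encodes a class A scavenger receptor with a collagenous stalk that binds bacteria and modified lipoproteins, and in liver it marks mainly Kupffer cells near portal tracts. The gene (ENSMUSG00000026390.8) lies at chr1:120402267-120432753. Marco was at 21.4, 18.6 and 19 CPM in DIO replicates 1, 4 and 5, and at 28.8, 29.2, 30, 30 and 34.3 CPM in DIO + DHA replicates 1, 2, 4, 5 and 6. All DIO + DHA libraries were above all DIO libraries. The mean rose from 19.6 ± 1.51 to 30.4 ± 2.22 CPM (log2 fold change 0.66, standard error 0.13, 95% interval 0.40 to 0.93, adjusted p = 0.000109 from edgeR), or 58.3% more. Msr1, another class A scavenger receptor, named here after its values were seen, was at 8.58 CPM in the DIO group and 6.01 CPM in the DIO + DHA group, and did not pass (log2 fold change -0.44, adjusted p = 0.256 from edgeR).

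Timd4, the receptor TIM-4 for phosphatidylserine on dying cells, separates long-resident Kupffer cells from macrophages that entered recently. The gene (ENSMUSG00000055546.7) lies at chr11:46701627-46735159 and gave few counts, from 3 to 29 per library. It was at 1.69, 3.07 and 3.73 CPM in DIO replicates 1, 4 and 5, and at 3.77, 2.35, 1.78, 2.58 and 6.33 CPM in DIO + DHA replicates 1, 2, 4, 5 and 6. The groups overlapped, with the lowest value in DIO replicate 1 and the highest in DIO + DHA replicate 6. The log2 fold change of 0.19 did not pass (standard error 0.34, 95% interval -0.49 to 0.87, adjusted p = 0.802 from edgeR), and it was -0.19 without DIO + DHA replicate 6. The interval includes changes in either direction.

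Cd163 encodes the receptor that clears haptoglobin-haemoglobin complexes, at chr6:124281615-124307486 (ENSMUSG00000008845.10). It was at 4.50, 6.13 and 3.73 CPM in DIO replicates 1, 4 and 5, and at 4.56, 5.03, 4.28, 3.75 and 2.84 CPM in DIO + DHA replicates 1, 2, 4, 5 and 6. The groups overlapped, and the log2 fold change of -0.27 did not pass (standard error 0.28, 95% interval -0.83 to 0.30, adjusted p = 0.622 from edgeR). It was 0.04 without DIO replicate 4. Its ligand haptoglobin (Hp) was lower, with means of 16000 ± 1210 and 11000 ± 417 CPM (adjusted p = 1.9e-11 from edgeR). Haemoglobin transcripts in liver, which come from blood cells, did not pass, with log2 fold changes of -0.13 for Hbb-bs and -0.15 for Hba-a1.

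Cd14, the co-receptor that hands lipopolysaccharide to TLR4, lies at chr18:36858120-36859851 (ENSMUSG00000051439.8). It was at 14.6, 16.4 and 13.3 CPM in DIO replicates 1, 4 and 5, and at 13.1, 13.1, 13.2, 14.5 and 15.5 CPM in DIO + DHA replicates 1, 2, 4, 5 and 6. The groups overlapped, with DIO + DHA replicates 1, 2 and 4 just below the lowest DIO library and DIO replicate 4 above all others, and the log2 fold change of -0.09 did not pass (standard error 0.16, 95% interval -0.41 to 0.24, adjusted p = 0.810 from edgeR). It was 0.03 without DIO replicate 4. Lbp, the serum protein that loads lipopolysaccharide onto CD14, fell by 0.45 on the log2 scale (adjusted p = 2.81e-05 from edgeR). Ly96, which encodes the MD-2 partner of TLR4, was at 4.43 and 3.25 CPM and did not pass (adjusted p = 0.377 from edgeR), and Tlr4 was below the filter with at most 6 counts in a library.

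The members that define macrophages in general were lower. Csf1r, the receptor for CSF1 and IL-34 on which macrophage survival depends, lies at chr18:61233670-61265221 (ENSMUSG00000024621.17). It was at 41.6, 39.1 and 43.8 CPM in DIO replicates 1, 4 and 5, and at 21, 24.5, 22.8, 23 and 22.5 CPM in DIO + DHA replicates 1, 2, 4, 5 and 6. No DIO + DHA library reached the DIO range (log2 fold change -0.87, standard error 0.12, 95% interval -1.11 to -0.64, adjusted p = 3.03e-08 from edgeR), or 45.4% less. Of its exon bases 15.12%, including all of the last 500, are also exon of Hmgxb3 on the opposite strand. The counting used no strand and by default leaves out reads that fall on both genes, so the level of Csf1r is uncertain. Hmgxb3 itself had 2 to 11 counts per library.

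Adgre1, the adhesion receptor F4/80, lies at chr17:57665691-57790527 (ENSMUSG00000004730.16). It was at 15.8, 6.49 and 8.34 CPM in DIO replicates 1, 4 and 5, and at 4.56, 6.70, 7.49, 4.92 and 4.37 CPM in DIO + DHA replicates 1, 2, 4, 5 and 6. The groups overlapped, and DIO replicate 1, the shallowest library, was far above the rest. The log2 fold change was -0.72 (standard error 0.25, 95% interval -1.22 to -0.23, adjusted p = 0.0360 from edgeR). Without DIO replicate 1 it was -0.45 and did not pass (adjusted p = 0.292 from edgeR). The call was also lost without DIO replicate 5 or DIO + DHA replicate 1, 5 or 6 (adjusted p from 0.0699 to 0.0941), with DESeq2 (0.0849), with limma-voom (0.0654) and with the replicate number as a block (0.0566).

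Folr2, a folate receptor of resident macrophages, lies at chr7:101489195-101506401 (ENSMUSG00000032725.11). It had 0 counts in each of the 3 DIO libraries and 3 counts over the 5 DIO + DHA libraries. A count of 0 over the DIO libraries allows up to 0.231 CPM, for counting error only. Of its exon bases 63.07%, including all of the last 500, are also exon of the antisense gene Gm10602, and reads on both are left out, so no level is given.

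**Figure D2:**
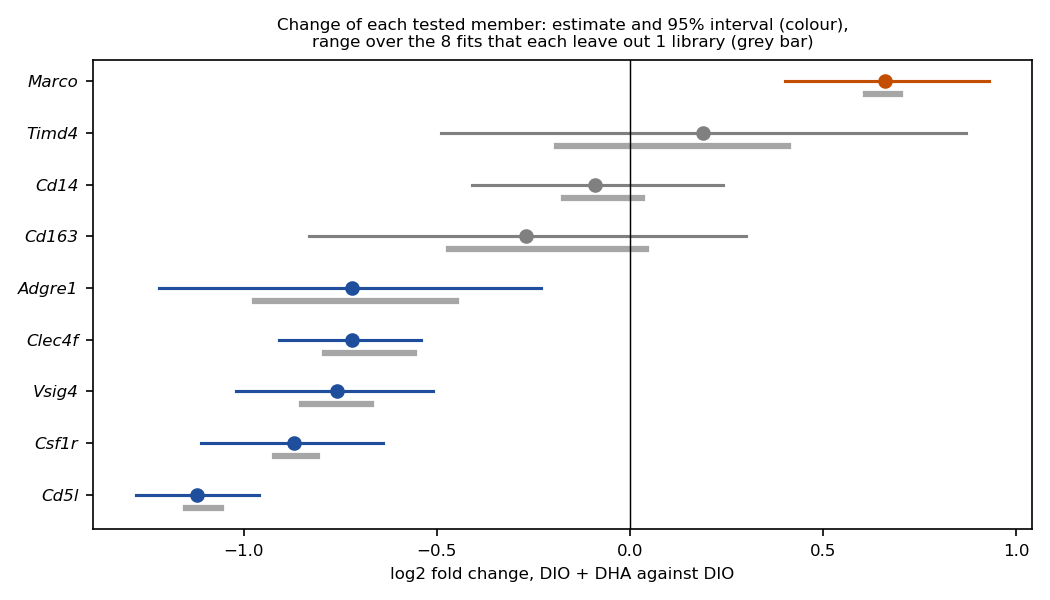
Log2 fold change (horizontal axis) of the 9 tested members, DIO + DHA against DIO, with its 95% interval in colour (blue lower, orange higher, grey not passing) and, as a grey bar, the range over the 8 fits that each left out 1 library. The bars of Marco, Clec4f, Vsig4, Csf1r, Cd5l and Adgre1 stay on 1 side of 0, and those of Timd4, Cd14 and Cd163 cross it. The call of Adgre1 was nonetheless lost in 5 of the 8 fits.

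Whether the members moved with the rest of the macrophage RNA was asked next. A list of 15 pan-macrophage genes, none of them a member, served as reference. All 15 were tested, 13 were lower (7.28% of all tested genes were) and none higher, with a median log2 fold change of -0.76. Among them Lyz2, the macrophage lysozyme, went from 154 ± 9.60 to 92.8 ± 4.85 CPM, and Ctss, a lysosomal protease of antigen presentation, from 110 ± 11.1 to 51.3 ± 4.72 CPM. Cd53 and Alox5ap had negative log2 fold changes of -0.50 and -0.41 and did not pass. For each library, the mean log2 CPM of the 15 genes was subtracted from the log2 CPM of the member, and the difference between groups was given a two-sided exact permutation test, in which the group labels have 56 arrangements.

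For Clec4f, Vsig4, Csf1r and Adgre1 the test did not pass. On this relative scale their differences, DIO + DHA minus DIO, were 0.18, 0.09, 0.03 and 0.14, with exact permutation p-values of 0.411, 0.571, 0.696 and 0.589. The difference of Adgre1 depended on single libraries, at 0.48 without DIO replicate 1, -0.11 without DIO replicate 4 and 0.00 without DIO + DHA replicate 4. For Cd5l the ratio to the reference had means of 2.33 ± 0.09 and 2.1 ± 0.11, a difference between the groups of -0.23 that did not pass (exact permutation p = 0.0714). The ratio of Marco differed by 1.51 between the groups, with means of -0.64 ± 0.09 and 0.87 ± 0.13, and that of Cd14 by 0.8, with means of -1.04 ± 0.14 and -0.24 ± 0.12. Both had an exact permutation p = 0.0179, the smallest that the design allows. With Adgre1 as the reference in place of the list, Marco kept this p and that of Cd14 was 0.125 (difference 0.66, exact permutation test). The same reference gave Timd4 a difference of 0.9 (exact permutation p = 0.286) and turned those of Vsig4 and Csf1r to -0.06 and -0.11. The ratio of Timd4 differed between the groups by 1.04 (exact permutation p = 0.0357) and that of Cd163 by 0.69 (exact permutation p = 0.0536). For Timd4 the exact permutation p was above 0.05 in 6 of the 8 sets that left out 1 library, at up to 0.0952. The exceptions were the sets without DIO + DHA replicate 1 or 6. Over the 8 sets its difference ran from 0.75 to 1.25. Fewer libraries leave fewer arrangements, so a p above 0.05 there does not by itself mean a smaller difference. For Cd5l the p was under 0.05 without DIO + DHA replicate 4 (-0.27, exact permutation p = 0.0286). For Cd163 it was so without DIO replicate 4 (0.87, exact permutation p = 0.0476) or DIO + DHA replicate 6 (0.81, exact permutation p = 0.0286). For Marco, Cd14 and Timd4 every DIO + DHA library was above every DIO library on this scale, that is for 3 of the 9 tested members, while the same held for 72.4% of all tested genes. Over the 9 ratios, no Benjamini-Hochberg adjusted value was under 0.05, and that of Marco and Cd14 was 0.0804. With limma on the same ratio over all tested genes, a test chosen after the data were seen, adjusted p-values were 5.42e-13 for Marco, 5.66e-05 for Cd14, 0.00338 for Timd4 and 0.0187 for Cd163. By that test 4 members were higher, while 83.2% of all genes tested were higher and 83.6% differed in either direction, so the members' share is below that of all genes. The other 5 members did not pass it, with adjusted p from 0.0602 for Cd5l to 0.826 for Csf1r.

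**Figure D3:**
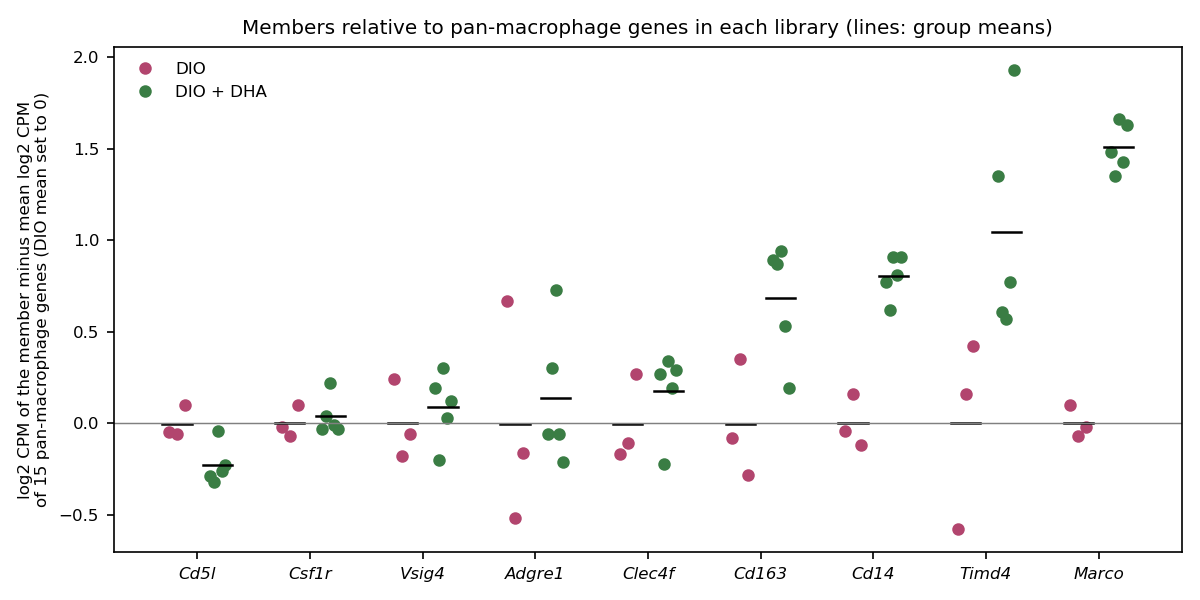
Log2 CPM of each tested member minus the mean log2 CPM of 15 pan-macrophage genes, per library, with the DIO mean of each member set to 0 (vertical axis). Points are the 3 DIO and 5 DIO + DHA libraries and lines are group means. The groups overlap for Clec4f, Vsig4, Csf1r, Adgre1, Cd5l and Cd163 and are apart for Marco, Cd14 and Timd4, where 72.4% of all tested genes are apart in that direction.

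Other genes that Kupffer cells express were taken from a list of 30, of which 28 were tested. Of these 16 were lower and none higher, where 7.28% of all tested genes were lower and 7.89% higher. The median log2 fold change was -0.83. C1qb and C1qc, chains of the complement recognition protein C1q, had log2 fold changes of -1.03 and -0.90, and C1qb was at 171 ± 11.1 and 83.9 ± 2.88 CPM. Fcna, the lectin ficolin A, went from 94.9 ± 7.32 to 61.4 ± 6.12 CPM, and Wfdc17, a small secreted macrophage protein, from 80.3 ± 5.87 to 39.5 ± 3.54 CPM. Paqr9 and Hpgd, which hepatocytes also express, did not pass, with log2 fold changes of 0.06 and 0.07. Among the tested genes of this list, the pan-macrophage list and the members, Marco was the only higher gene.

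The list of 18 transcriptional regulators of Kupffer cells was mixed. Of 17 tested, 4 were lower and 2 higher, where 7.28% of all tested genes were lower and 7.89% higher. Among the lower genes were Cebpb, a factor of myeloid differentiation and of the hepatocyte acute phase, and Spi1, which encodes PU.1 and was named after its values were seen, with log2 fold changes of -1.05 and -0.75 (adjusted p = 5.14e-17 and 0.0246 from edgeR). Id3, a factor that Kupffer cells need and that other liver cells share, rose from 52.5 ± 3.28 to 69.6 ± 7.42 CPM (log2 fold change 0.42, adjusted p = 0.00133 from edgeR). Id1, its relative, named after its values were seen, rose by 1.35 on the log2 scale. Nr1h3, which encodes the LXR alpha receptor that sustains Kupffer identity and is abundant in hepatocytes, was at 153 CPM in both groups (log2 fold change -0.01, adjusted p = 0.970 from edgeR). Spic was at 2.5 ± 0.765 and 1.43 ± 0.604 CPM and did not pass (adjusted p = 0.316 from edgeR).

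Ligands and niche signals are given beside all tested genes, of which 15.2% passed in either direction. Csf1 and Il34, the ligands of Csf1r, had log2 fold changes of -0.48 and 0.02 that did not pass (adjusted p = 0.245 and 0.982 from edgeR), with means for Csf1 of 6.39 ± 1.6 and 4.92 ± 1.6 CPM. Among the 5 genes of this axis, Csf1r and Csf2ra, the GM-CSF receptor chain, were lower. Of 15 tested genes of niche signalling, 3 were lower and none higher, where 7.28% of all tested genes were lower and 7.89% higher. These were Il1r1, the interleukin-1 receptor (log2 fold change -1.24), Gdf2, the stellate cell factor BMP9 (-0.62), and Tnfrsf1a, the TNF receptor 1 (-0.35). Among ligands and partners of the members, 8 of 21 tested were lower and none higher, and these included hepatocyte secretory proteins such as Hpx, the haem carrier haemopexin, with a log2 fold change of -1.

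Markers of other macrophage states and other cells gave the surroundings of the members. The counts below stand beside all tested genes, of which 7.28% were lower and 7.89% higher. Of 14 tested genes of monocyte-derived macrophages, 6 were lower and 1 higher. Cd52 and Clec12a were lower (log2 fold changes -0.81 and -0.94), and the higher gene, Ly6c1, named after its values were seen, is also made by endothelium. Of 14 genes of lipid-associated macrophages, which include Cd5l, 7 were lower and 3 higher, with a median of -0.15. The 7 lower genes were Apoe, Ctsb, Cd5l and, named after their values were seen, Trem2, Lgals3, Gpnmb and Cd63. Trem2, a lipid-sensing receptor that marks this state, went from 7.01 ± 1.65 to 1.84 ± 0.813 CPM (log2 fold change -1.91, adjusted p = 1.52e-06 from edgeR). Lgals3, which encodes galectin-3, Gpnmb and Cd63 had log2 fold changes of -1.24, -1.23 and -0.37. The higher genes were Lipa, a lysosomal lipase, and Lpl and Fabp5, which were named after their values were seen. Other tissues express these 3 genes as well. The same holds for Apoe and Ctsb among the lower genes, and for Fn1 and Ifitm3 of the monocyte-derived list, which were also lower. Of 18 sinusoidal endothelial genes, 5 were lower and none higher, with a median of -0.31. Clec4g, Lyve1, Ehd3 and Dnase1l3 were among them, while Stab2 was at 38.1 ± 4.67 and 30.3 ± 5.65 CPM and did not pass. Mrc1, the fifth, named after its values were seen, is on the list of other Kupffer cell genes too. Of 14 tested T and NK cell genes 8 were lower, and among 7 tested dendritic cell and MHC class II genes 4 were lower, namely H2-Ab1, H2-Aa, H2-Eb1 and the invariant chain Cd74. Of 5 tested neutrophil genes Lcn2, also made by hepatocytes, was lower, and of 7 tested bile duct genes Sox9 was higher. None of 5 tested B and plasma cell genes passed. The stellate list gave 3 lower and 2 higher genes of 15, and the higher ones, Des and Acta2 (the latter named after its values were seen), are also muscle genes. The part of these cell types in the members' differences was not tested.

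**Figure D4:**
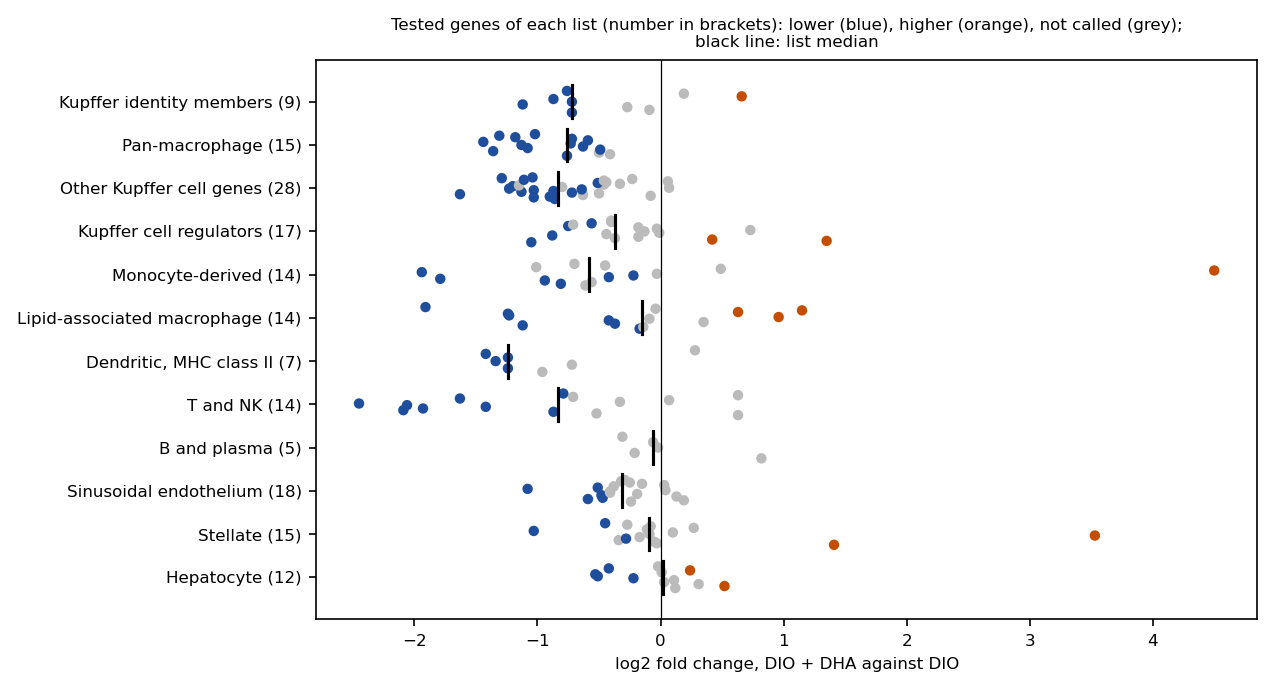
Log2 fold change (horizontal axis), DIO + DHA against DIO, of the tested genes of 12 lists (rows, number of tested genes in brackets). Blue points were lower, orange points higher and grey points did not pass, and black lines are list medians. The pan-macrophage and other Kupffer cell lists lie to the left with medians of -0.76 and -0.83, and Marco is the orange point among the members.

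The 12 hepatocyte genes were all counted at high levels, from 112000 to 120000 summed CPM in the DIO libraries and 110000 to 126000 in the DIO + DHA libraries, as the label liver requires. Of these, Trf, Fgb, Cyp2e1 and Hnf4a were lower and Apoa1 and Tat higher, of which Hnf4a and Tat were named after their values were seen. Libraries held 1723800 to 5690347 counts, with DIO replicate 1 the shallowest. Genes of tissues that liver does not contain differed between the groups. All 20 skeletal muscle genes were higher in the DIO + DHA group, with 47.0 to 53.2 summed CPM in the DIO libraries and 1540 to 1670 in the DIO + DHA libraries, and 1 of the 20, Mb, had 0 counts in the DIO libraries. Of 8 tested squamous epithelium genes 7 were higher, from 5.68 to 7.88 summed CPM over the list of 16 to 85.8 to 98.5, and 11 of the 16 had 0 counts in the DIO libraries. The summed CPM of these 2 lists separated every library by group. Anything else that differed between the groups therefore cannot be told apart from diet. The part of these 2 lists in the members' differences was not tested. When the library scaling was computed without these 2 lists, the same number of members was lower (5) and higher (1).

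The members did not share 1 profile over the 8 libraries. The median of their centred log2 CPM profiles was taken, and the root mean square distance of each member from it ran from 0.175 for Csf1r to 0.596 for Timd4 on the log2 scale. Counting error enters these distances. For Timd4, counting alone gives a coefficient of variation of 34.6% in the DIO and 30.8% in the DIO + DHA libraries. For Marco, at a distance of 0.562, it gives 11.9% and 9.35%. Of the 8221 other genes averaging 5 CPM or more, the nearest to that median profile were Itih3, Nat8f2, Akr1c6, Aars1 and Sord, with distances of 0.0502 to 0.0603. Only 1 to 3 of these 5 remained among the nearest when 1 library was left out, and 1 remained without DIO replicate 1 or without DIO + DHA replicate 6. All 5 were lower in the DIO + DHA group, with log2 fold changes from -0.56 to -0.45, and the median distance of all compared genes was 0.326. The 5 genes had DIO means of 175 to 1150 CPM, so counting error adds little to their distances.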

How the data were processed

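Liver poly(A) RNA was sequenced from 3 DIO and 5 DIO + DHA mice. The authors made 3′-enriched cDNA after SCRB-seq, aligned reads to GRCm39 with STAR 2.7.9a and counted exon reads per gene of GENCODE mouse release 33 with featureCounts 1.6.0, unstranded. The deposited counts are whole numbers without normalization, and whether molecular identifiers were collapsed is not given in the sources used here. The floor given for 0 counts covers counting error only, while the 95% intervals come from the edgeR fit and include the spread between libraries.

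Names came from GENCODE mouse release 39 (56323 of 56884 identifiers). Genes under 5 counts in over 50% of the libraries, in both groups alike, were dropped, which left 12412. TMM, edgeR 4.0.16 (quasi-likelihood, R 4.3.3) and Benjamini-Hochberg adjustment were used, with limma 3.58.1 (voom; the study's methods name limma with a log-odds B above 0) and DESeq2 1.42.0 as alternatives. Standard errors were the log2 fold change over the square root of F. The log2 CPM used a prior count of 2. Other scalings, filters, a replicate block, other reference genes for the ratios and leaving out each library were tried, and a limma test of the ratios was added after the data were seen. The tests were tried on simulated data, and the outcome of that is not reported here. Labels name no cage or extraction groups. The p-values measure the spread between these mice and treat them as independent, so a difference between cages cannot be separated. All libraries carry batch 1.

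The members and gene lists were chosen with earlier results of these data known. All members are named, as are, from each list, up to 4 called and 2 uncalled genes with the largest mean CPM, the ligands, partners and factors of members, and the 5 genes nearest in profile. Some genes that this rule names are not reported here.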

Additional observations from a re-analysis of the deposited data

Results flagged for a closer look

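Single values that stood apart were sought in the 5 DIO + DHA libraries, over 118 sets of values, of which chance alone marks about 1 in 20. There were 10. Marco was at 34.3 CPM in DIO + DHA replicate 6, above the 28.8 to 30.0 CPM of the other libraries. Clec4f relative to the pan-macrophage genes was at 1.80 in DIO + DHA replicate 2, below 2.21 to 2.36 in the others, and Csf1r on the same scale was at 0.64 in DIO + DHA replicate 4, above 0.39 to 0.46. Spic (2.50 CPM), Nkg7 (7.85 CPM), H2-Aa (58.5 CPM) and Krt10 (8.92 CPM) were each highest in DIO + DHA replicate 4. Batf3 (3.75 CPM) and Ecm1 (180 CPM) were highest in replicate 5 of that group, and Bmp2 was lowest in replicate 1, at 8.73 CPM against 11.1 to 11.4 CPM.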

How the results depend on the processing

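Across 10 alternatives of scaling, test, filter and block, 5 to 6 members passed, with 4 to 5 lower and 1 higher, and the range was the same over the 8 fits that left out 1 library. In the 9 of these that give adjusted p-values and in those 8 fits, Cd5l, Clec4f, Vsig4, Csf1r and Marco kept their direction and their call. Adgre1 lost its call with DESeq2 (-0.78), limma-voom (-0.64) and the replicate block (-0.79), and in 5 of the 8 fits without 1 library, over which it ran from -0.97 to -0.45. Signs turned for Timd4 with the replicate block (-0.19) and over fits without 1 library (-0.19 to 0.41), and over the latter also for Cd163 (-0.47 to 0.04) and Cd14 (-0.17 to 0.03). None of these 3 passed in any of them. Over all genes, limma-voom with its log-odds B over 0 gave 860 in place of 1883 (463 higher, 397 lower), and DESeq2 gave 601 lower in place of 904.

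Relative to the pan-macrophage genes, Adgre1 as the reference turned Vsig4 (-0.06) and Csf1r (-0.11) and took the p of Timd4 (0.90, p = 0.286) and Cd14 (0.66, p = 0.125) over 0.05 in the exact permutation test. Cd163 passed with the median of the list (0.78) and with limma (0.69), and Timd4 did not with a prior count of 0.5 (1.08, exact permutation p = 0.0536). The cause was not tested. Without 1 library, differences ran from 0.75 to 1.25 for Timd4, 0.55 to 0.87 for Cd163, -0.27 to -0.18 for Cd5l, 0.00 to 0.21 for Vsig4, -0.11 to 0.48 for Adgre1 and -0.01 to 0.08 for Csf1r. For Clec4f they ran from 0.10 to 0.31. Cd5l passed without DIO + DHA replicate 4, and Cd163 without DIO replicate 4 or DIO + DHA replicate 6. Without DIO replicate 4, Vsig4 came to 0.00, Adgre1 to -0.11 and Csf1r to -0.01, and without DIO + DHA replicate 4 Adgre1 came to 0.00 and Csf1r to -0.01. Marco (1.47 to 1.56) and Cd14 (0.74 to 0.88) stayed under an exact permutation p of 0.05. Of the 5 genes nearest in profile, 1 to 3 remained when 1 library was left out. Replicate numbers 1, 4 and 5 occur in both groups, but same-numbered libraries did not deviate together (correlations across genes -0.0133, -0.0135 and -0.0111), so the block is not a pairing. With it, 5 members passed. For the ratios no paired test was run, since 3 shared numbers leave too few arrangements to reach 0.05. Timd4 and Cd163 could not be tested with 10 counts required in every library. In the DIO libraries the coefficient of variation was 48.1% for Adgre1, where counting alone gives 16.7%. In the DIO + DHA libraries it was 53.9% for Timd4 against 30.8% from counting.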
